A study of Mus musculus with 8 samples.

Results

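The response of mouse embryonic fibroblasts to oncostatin M (OSM) was compared between cells with and without the transcription factor Stat3, gene by gene. The 2 lines were a spontaneously immortalised STAT3+/+ line (Stat3 WT below) and a STAT3-/- line (Stat3 KO below), and each was left untreated or given OSM at 20 ng/ml for 30 minutes. Each of the 4 groups held 2 arrays, numbered 2 and 3 in the sample titles, so all 8 arrays of the series entered. One line stands for each genotype, so an effect of Stat3 and other differences between the lines cannot be told apart. The labels do not say whether both arrays of a group stem from separate cultures, so p-values here reflect array-to-array spread only, which could be technical. Treatment was read from the titles, since the growth description names OSM for every array.

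For each gene the OSM response (OSM minus untreated, log2) was taken within each replicate number and genotype, and the Stat3 WT response was subtracted from the Stat3 KO response. Of 8251 genes with a probe set of a single symbol, 4569 had a group mean above log2 7 in at least 1 of the 4 groups. A gene was said to respond where its level moved by at least 1 log2 unit (2-fold) in 1 direction in both numbers. A response was lost where it was present in Stat3 WT, was under that limit in both Stat3 KO pairs, and differed between genotypes by at least 1 log2 unit in both numbers; gained is the converse. Kept genes responded in 1 direction in both genotypes, reversed genes in opposite directions. Genes that responded in 1 genotype only and met none of these conditions were called undecided. These classes are descriptions by size and consistency, not tests.

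OSM is a cytokine of the interleukin-6 family. It binds a complex of the OSM receptor with gp130 (encoded by Il6st). The JAK kinases bound to these chains phosphorylate Stat3 and other STAT factors and also start the Ras and MAP kinase cascade. Stat3 dimers bind sites with the letters TTCNNNGAA and raise the transcription of many genes, among them that of Socs3, the suppressor that binds gp130 and the JAKs and ends the signal. The MAP kinase arm drives immediate early genes such as Fos and Egr1.

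Stat3 itself read lower in the Stat3 KO arrays. Its brighter probe set read 10.11 and 10.50 (replicates 2 and 3) untreated and 11.82 and 11.94 with OSM in Stat3 WT, against 8.08 and 7.81 untreated and 8.70 and 9.17 with OSM in Stat3 KO. The other Stat3 probe set read 9.80 to 12.57 in Stat3 WT, 2.76, 2.86 and 2.94 on 3 of the Stat3 KO arrays, and 7.30 on Stat3 KO OSM replicate 3. That array stood apart in this check, and the differences within replicate 2 do not use it. Arrays sharing a number resembled each other more (correlations of 0.93 to 0.98 across probe sets) than arrays of a group (0.87 to 0.93), and Stat3 KO OSM replicate 2 correlated at 0.93 with untreated Stat3 KO replicate 3. Of 17 fibroblast markers on the array 13 had a group mean above log2 7, with Thy1, Vim, Fap and Lum below it, and the list's summed level was 17.66 to 18.66 on all arrays. No epithelial marker of 10 and no endothelial marker of 8 passed that level, and 2 of 10 leukocyte (Cd14 and Csf1r), 2 of 8 muscle (Actc1 and Myog) and 2 of 8 neural markers (Mbp and Tubb3) did.

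Both genotypes responded to OSM, and part of the responding genes were shared between them. In Stat3 WT cells 101 genes responded upward (2.21% of 4569) and 43 downward (0.941%). In Stat3 KO cells the counts were 105 (2.3%) and 26 (0.569%). Of the genes up in Stat3 WT 46.5% were also up in Stat3 KO, and of those up in Stat3 KO 44.8% were also up in Stat3 WT. For downward responses these shares were 16.3% and 26.9%. Of the 220 genes that responded in either genotype, 23 responses were lost (0.503% of the 4569 genes), 18 were gained (0.394%), 54 were kept (1.18%), 1 was reversed (0.0219%) and 124 were undecided (2.71%). The Stat3 KO minus Stat3 WT difference reached 1 log2 unit in both numbers for 61 genes with the Stat3 KO response higher (1.34%) and for 38 with it lower (0.832%). That split depended on the scaling: it was 51 and 48 after quantile normalization and 35 and 55 with each array centred on its median, which moved the median difference of all genes from 0.05 to -0.06. Median centring also gave 108 upward responses in Stat3 WT and 90 in Stat3 KO, so the genotypes are not ordered by the number of responses.

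**Figure D1:**
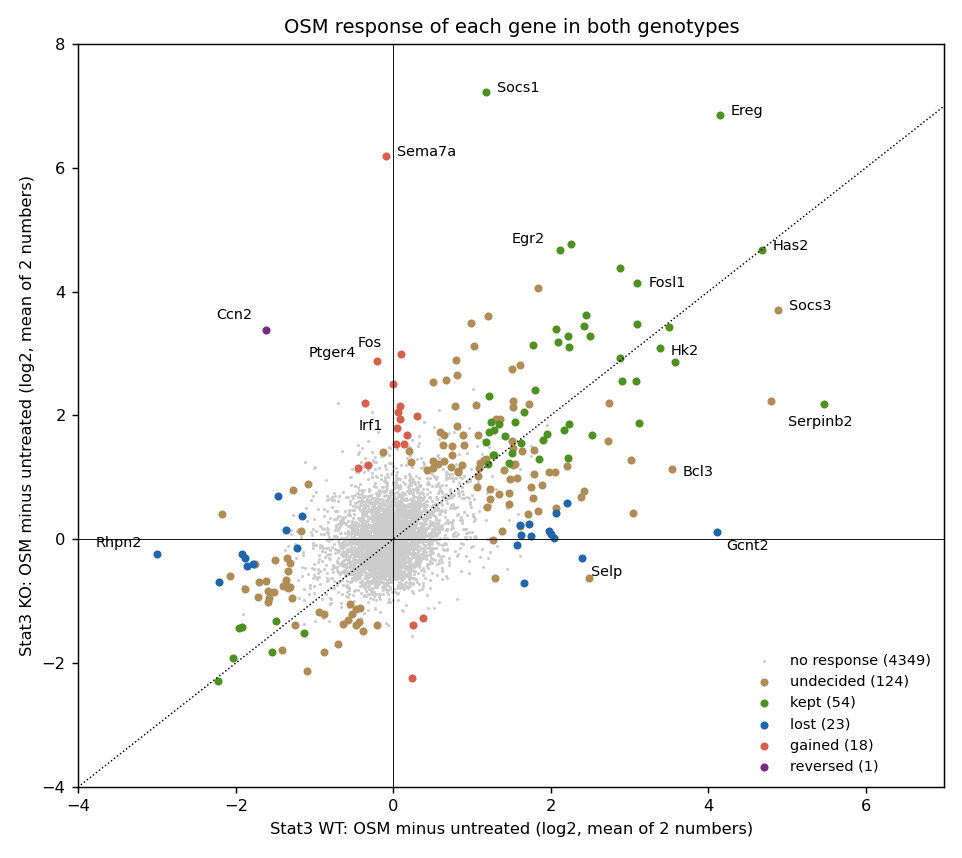
Mean OSM response of each of 4569 genes in Stat3 WT cells (x axis, log2) and in Stat3 KO cells (y axis, log2), each the mean over replicates 2 and 3, coloured by class with the number of genes. The dotted line marks equal responses. Socs1, Ereg and Sema7a lie highest, at 7.23, 6.85 and 6.20 in Stat3 KO, and Gcnt2 lies near 0 in Stat3 KO at 4.11 in Stat3 WT.

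The classes sat on a spread between numbers that was large against the responses. Across the 4569 genes, the Stat3 WT responses of both numbers correlated at 0.62 and the Stat3 KO responses at 0.55, while the difference of responses correlated at 0.35 between the numbers. Within replicate 2 the responses of the genotypes correlated at 0.34, and within replicate 3 at 0.52. Genes are not independent replicates, and pairs of arrays enter more than 1 of these values, so they describe the data only. The limma test of the difference, fitted on 4 group means of the deposited values, called 0 of 6756 probe sets (0.0%) at an adjusted p under 0.05, with 29 at an unadjusted p under 0.05 (15 higher and 14 lower in Stat3 KO). With the replicate number as a block it called 0, with 248 at an unadjusted p under 0.05. With a block for each number in each genotype, which pairs each treated array with the untreated array of its number, it called 1, Socs1 (0.0148%), with 546 at an unadjusted p under 0.05. Without a block, every adjusted p of a difference was 1 in limma. Single-gene errors and p-values below are from that limma fit unless a block is named. That fit ignores the pairing by number, so its errors include the shift between the numbers. The median limma standard error of a difference was 0.69 without a block, 0.40 with the replicate block and 0.31 with the block within genotype.

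The feedback inhibitor Socs1 had the largest mean Stat3 KO response of the genes classed. Its protein blocks the JAK kinases and is known above all as a brake on interferon signalling. It read 1.13 and 1.49 untreated and 2.40 and 2.58 with OSM in Stat3 WT, against 1.14 and 4.10 untreated and 8.31 and 11.40 with OSM in Stat3 KO. Both treated Stat3 KO arrays stood above the other 6 arrays, 5 of which read below log2 3. The response was 7.16 and 7.30 in Stat3 KO cells against 1.27 and 1.09 in Stat3 WT cells, which placed Socs1 among the kept genes although both Stat3 WT levels were dim. The difference was 6.05 ± 1.80 (limma SE; unadjusted p = 0.0148, adjusted p = 1). In limma with a block for each number in each genotype the SE was 0.26 and the adjusted p 0.0148. When values under 5 were raised to 5, the difference was 3.31 in replicate 2 and 6.40 in replicate 3, the Stat3 WT response was 0 in both, and the limma adjusted p with that block was 0.598. The size of the Socs1 difference, and its call, thus depended on values below log2 5.

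Sema7a and Ptger4 were at a low level in every group but Stat3 KO with OSM. Sema7a encodes a membrane-anchored semaphorin that signals through integrins and plexins. It read 2.09 and 2.60 untreated and 1.97 and 2.53 with OSM in Stat3 WT, against 2.13 and 2.43 untreated and 9.47 and 7.48 with OSM in Stat3 KO. Both treated Stat3 KO arrays stood above the other 6 without overlap. The other Sema7a probe set did not show this: it read 1.71 to 1.97 on all 8 arrays, with differences of -0.02 and 0.16. For the brighter one the difference of 6.29 ± 0.99 had the smallest p of all 6756 probe sets (limma, unadjusted p = 0.000668, adjusted p = 1), and it was 4.47 and 2.48 in the numbers with values under 5 raised to 5. Ptger4, the EP4 receptor for prostaglandin E2, read 4.63 and 4.36, then 4.08 and 4.51 with OSM in Stat3 WT, and 4.09 and 4.35, then 7.65 and 6.55 with OSM in Stat3 KO. Its difference was 3.08 ± 0.68 (limma, unadjusted p = 0.0037, adjusted p = 1). Of its 8 arrays 6 read below log2 5, and setting those values to 5 left 2.65 and 1.55.

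Irf1, a transcription factor that acts on interferon-type genes, was gained as well. It read 10.88 and 12.02 untreated and 11.12 and 11.91 with OSM in Stat3 WT, against 11.41 and 12.78 untreated and 13.48 and 14.82 with OSM in Stat3 KO. Both treated Stat3 KO arrays were the highest of the 8, and the Stat3 WT pairs lay close together. The response was 2.07 and 2.04 in Stat3 KO against 0.24 and -0.11 in Stat3 WT, and the difference was 1.99 ± 1.01 (limma, unadjusted p = 0.0943, adjusted p = 1). In limma with a block for each number in each genotype the SE was 0.22 (unadjusted p = 0.000249, adjusted p = 0.391). No array of Irf1 was below log2 5. Its promoter is shown because Irf1 is the only upward gained gene, of 14 matched in the RefSeq promoter table, whose window held the letters TTCNNNGAA. The 250 bases before the start, chr11:53769764-53770013 of GRCm38.p6, plus strand, are given 5′ to 3′ with the match in capitals, which begins 90 bases before the start.
Irf1: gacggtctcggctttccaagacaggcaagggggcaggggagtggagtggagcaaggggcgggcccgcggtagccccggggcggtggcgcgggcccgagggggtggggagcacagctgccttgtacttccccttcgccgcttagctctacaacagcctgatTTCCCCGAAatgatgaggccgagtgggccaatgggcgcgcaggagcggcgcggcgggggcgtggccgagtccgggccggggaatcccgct

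Fos, Cxcl10 and Ifit3 were also gained, on untreated levels that differed widely between the numbers. Fos, a partner in the AP-1 factor, read 2.70 and 7.95 untreated and 3.09 and 7.75 with OSM in Stat3 WT, against 2.70 and 10.04 untreated and 5.67 and 13.05 with OSM in Stat3 KO. Only within a number did the treated Stat3 KO array stand above the other 3, by 2.58 and 3.01 log2 units, and the groups overlapped. The difference was 2.58 and 3.21 in the numbers, and 0.67 and 3.21 with values under 5 set to 5, where Fos left the class. Cxcl10, a chemokine of the interferon response, read 5.93 and 7.61, then 5.61 and 7.94 in Stat3 WT, and 6.17 and 11.41, then 8.48 and 14.11 in Stat3 KO. Its Stat3 KO response was 2.31 and 2.70 against -0.33 and 0.33 in Stat3 WT. Ifit3, an antiviral protein induced by interferon, responded by 2.93 and 1.47 in Stat3 KO against -0.43 and -0.29 in Stat3 WT, from untreated Stat3 KO levels of 4.12 and 13.51. Its Stat3 WT arrays of replicate 2 read only 3.31 and 2.88. With values under 5 set to 5 its difference was 2.05 and 1.76 in the numbers. The level of these interferon-type genes thus moved with the number as well as with OSM, and its part in the result was not tested.

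The other upward gained genes lay between 1.39 and 2.06 in mean difference. Epha2, a receptor tyrosine kinase for ephrins, responded by 1.96 and 1.91 in Stat3 KO against -0.28 and 0.44 in Stat3 WT. Spsb1, an adaptor of ubiquitin ligases, responded by 2.87 and 1.42 against 0.63 and -0.44, and its other probe set by 2.80 and 0.98 against 1.15 and -1.15. Slc20a1, a phosphate transporter, had responses of 2.48 and 1.11 against 0.65 and -0.57. Nr4a1, an immediate early nuclear receptor, had 1.19 and 1.13 against -0.79 and -0.11, and left the class when values under 5 were set to 5. Ggct, Cmtr2, Cacybp and Ifrd1 were gained as well. Downward responses were gained for Tcea2, an elongation factor gene (-2.48 and -1.999 in Stat3 KO), Pih1d1, of a chaperone complex (-1.37 and -1.19), and Tpgs1, of the tubulin polyglutamylase complex (-1.38 and -1.38). The other Tcea2 probe set, dim on all arrays, did not show this: it gave -0.64 and 0.33 in Stat3 KO against -0.36 and -0.17 in Stat3 WT.

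**Figure D2:**
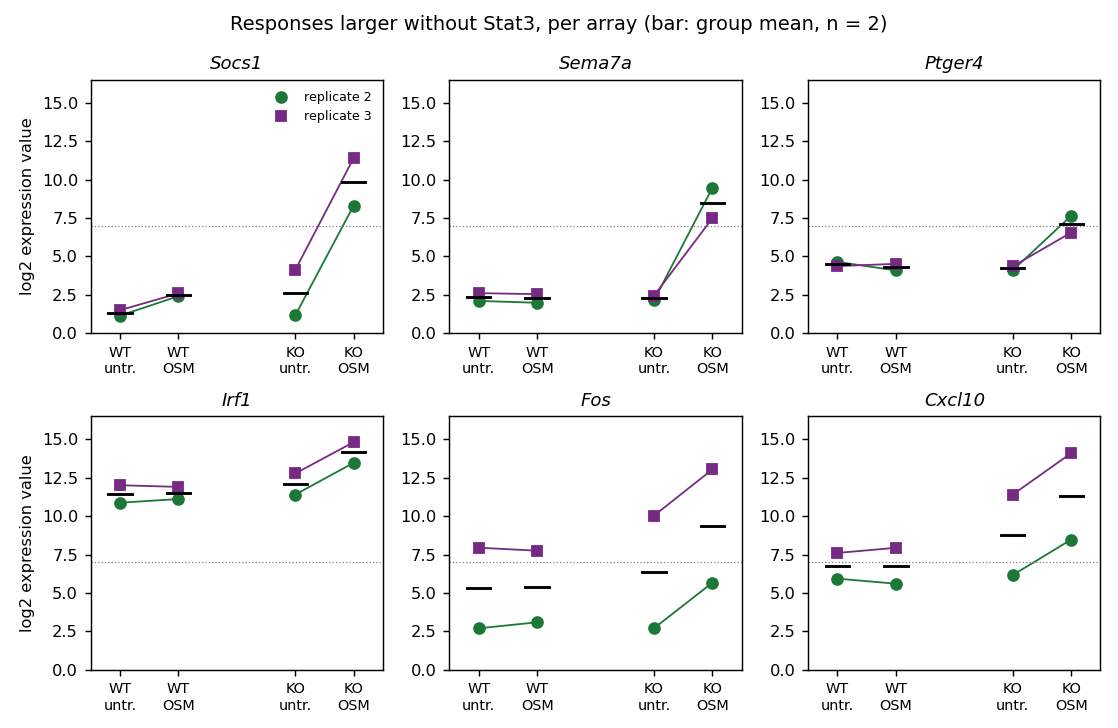
Log2 expression value on each array for Socs1 and 5 gained genes, by group on the x axis (untr., untreated), with lines joining arrays of 1 replicate number and black bars at the group mean (n = 2). The dotted line marks log2 7. In each panel the Stat3 KO array with OSM is above the untreated one in both numbers, and for Fos and Cxcl10 the numbers lie far apart.

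Among the 13 upward responses that were lost, the mean Stat3 WT response was 1.57 to 4.11 (median 1.98) and the mean Stat3 KO response -0.71 to 0.58 (median 0.08). Gcnt2, the enzyme that branches poly-N-acetyllactosamine chains into the I antigen, differed most. It read 3.51 and 3.89 untreated and 9.09 and 6.52 with OSM in Stat3 WT, against 3.64 and 3.75 untreated and 3.73 and 3.89 with OSM in Stat3 KO. Only the treated Stat3 WT arrays were above log2 5. The difference was -3.998 ± 1.15 (limma, unadjusted p = 0.0128, adjusted p = 1), and -4.09 and -1.52 in the numbers with values under 5 set to 5. A related enzyme of glycan synthesis, the sialyltransferase St3gal1, responded by 1.79 and 2.35 in Stat3 WT and by 0.13 and 0.73 in Stat3 KO, a difference of -1.64 ± 0.61 (limma, unadjusted p = 0.0344, adjusted p = 1).

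Adhesion molecules and a cytokine receptor were lost as well. Il17ra, the receptor chain for interleukin-17A, read 10.13 and 10.73 untreated and 12.38 and 12.88 with OSM in Stat3 WT, against 10.26 and 10.22 untreated and 11.02 and 10.62 with OSM in Stat3 KO. The treated Stat3 WT arrays were the highest, with no overlap. Its difference was -1.62 ± 0.50 (limma, unadjusted p = 0.0166, adjusted p = 1), and its other probe set responded by 2.55 and 2.06 in Stat3 WT against 0.49 and 0.59 in Stat3 KO. Selp, or P-selectin, which captures leukocytes, read 7.11 and 8.32, then 8.999 and 11.22 in Stat3 WT, and 3.89 and 5.32, then 3.77 and 4.82 in Stat3 KO. Its untreated level also differed between the lines, and every Stat3 KO array was below every Stat3 WT array. The difference of responses was -2.01 and -3.41 in the numbers.

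Icam1, a ligand of leukocyte integrins and a STAT3 target on the list used here, was the only member of that list whose response was lost. It read 4.66 and 6.97 untreated and 6.82 and 8.82 with OSM in Stat3 WT, against 5.54 and 5.77 untreated and 5.66 and 5.80 with OSM in Stat3 KO. The Stat3 WT groups overlapped, and within each number the treated array was higher by 2.17 and 1.85, against 0.12 and 0.03 in Stat3 KO. The difference was -1.93 ± 1.31 (limma, unadjusted p = 0.191, adjusted p = 1). In limma with a block for each number in each genotype the SE for Icam1 was 0.30 (unadjusted p = 0.00128, adjusted p = 0.575). Its promoter is shown as 1 of 3 among the 9 matched upward lost genes that held the STAT letters, the others being Gcnt2 and Pros1. The 250 bases before the start, chr9:21015690-21015939 of GRCm38.p6, plus strand, follow with the match, 42 bases before the start, in capitals.
Icam1: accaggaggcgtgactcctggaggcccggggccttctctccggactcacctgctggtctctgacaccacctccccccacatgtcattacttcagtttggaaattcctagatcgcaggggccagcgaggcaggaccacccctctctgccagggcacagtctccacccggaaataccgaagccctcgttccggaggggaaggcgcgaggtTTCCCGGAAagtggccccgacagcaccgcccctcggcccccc

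In the RefSeq promoter table, windows from 250 bases before to 50 after the start held TTCNNNGAA on either strand in 9.55% of 27025 genes. The counts were 3 of 9 for upward lost, 1 of 14 for upward gained and 6 of 32 for upward kept genes, and 1 of 8 for downward lost genes. The AP-1 letters TGANTCA occurred in 8.97% of all genes, and in 1 of 9, 2 of 14 and 5 of 32 of these upward classes. The CRE letters TGACGTCA occurred in 2.03%, and in 0 of 9, 1 of 14 and 2 of 32. These 3 sets of letters do not contain one another. With so few genes the counts are a description, and a match is neither a binding site nor a cause.

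Signalling and metabolic genes made up most of the remaining upward lost genes. Ralgds, which activates the Ral GTPases downstream of Ras, read 9.42 and 9.31, then 10.82 and 11.40 in Stat3 WT, and 9.61 and 8.96, then 9.36 and 9.32 in Stat3 KO. Its difference was -1.70 ± 0.52 (limma, unadjusted p = 0.0162, adjusted p = 1). Map3k6, a kinase of the stress MAP kinase pathways, responded by 1.64 and 1.61 in Stat3 WT against 0.04 and 0.10 in Stat3 KO, a difference of -1.56 ± 0.49 (limma, unadjusted p = 0.0178, adjusted p = 1). For both genes the treated Stat3 WT arrays stood above the other 6. Gys1, or muscle glycogen synthase, responded by 1.05 and 2.27 against -0.55 and -0.87. Nnmt, which methylates nicotinamide, responded by 1.37 and 2.59 against 0.04 and 0.22, Xdh, the xanthine oxidoreductase of purine breakdown, by 1.23 and 1.98 against -0.09 and 0.54. Secreted proteins were the anticoagulant protein S gene Pros1 (2.41 and 1.67 against -0.50 and 0.55) and the protease inhibitor Slpi (1.98 and 1.47 against 0.53 and -0.03). Slpi's next brightest probe set read 1.36 and 0.87 against -0.04 and 0.05. Susd6 completed the list, at 1.72 and 1.42 against 0.30 and -0.48.

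Downward responses were lost for 10 genes, with a mean difference of 1.09 to 2.76 (median 1.53). Rhpn2 read 8.15 and 9.75, then 3.997 and 7.90 in Stat3 WT, and 5.94 and 10.39, then 5.72 and 10.15 in Stat3 KO. The treated Stat3 WT array was the lowest within each number. Vdr, the vitamin D receptor, had responses of -1.37 and -2.41 in Stat3 WT against -0.36 and -0.25 in Stat3 KO, and Pdgfrb, a PDGF receptor that also marks fibroblasts, -1.57 and -1.999 against -0.38 and -0.44. Ptk2b, a focal adhesion kinase relative, had -1.10 and -1.81 against 0.95 and 0.45. The others were Slc22a23, Rassf2, Ccdc90b, Prim1, Scel and Fam117a. Ccdc90b, at 1.002 in replicate 3, and Vdr, at 1.01 in replicate 2, lay just inside the limit for the difference. The other probe set of Ccdc90b gave -0.80 and -0.31 in Stat3 WT against 0.12 and -0.12 in Stat3 KO, under the limit of a response.

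**Figure D3:**
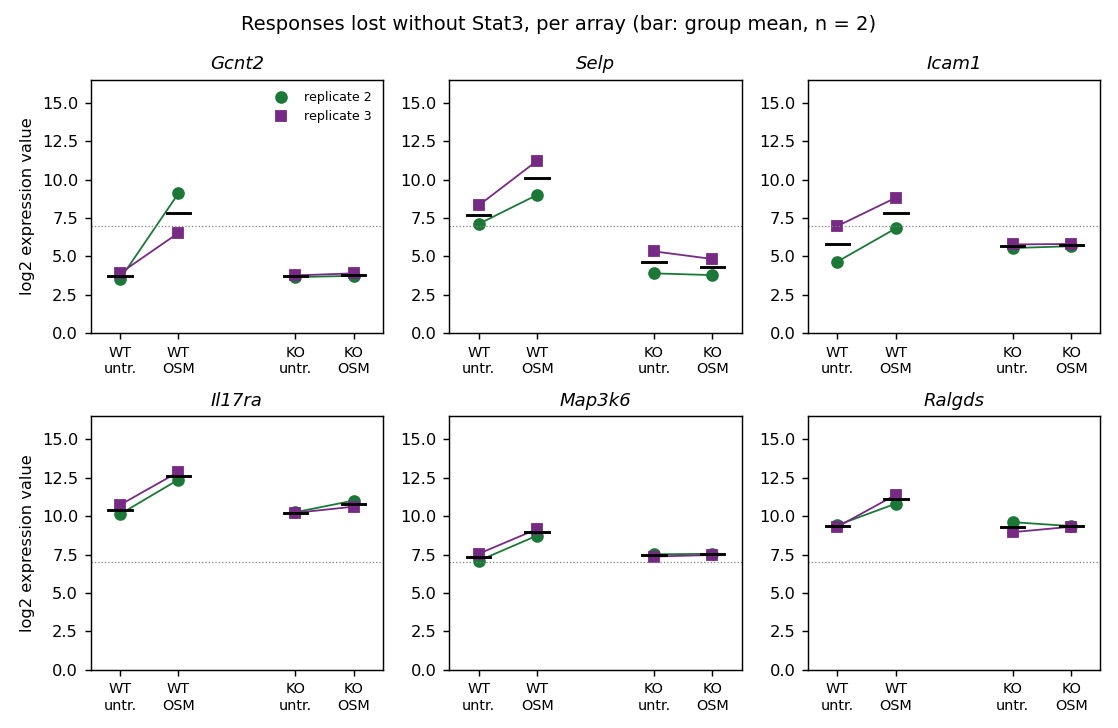
Log2 expression value on each array for 6 genes whose upward response was lost, by group on the x axis (untr., untreated), with lines joining arrays of 1 replicate number and black bars at the group mean (n = 2). The dotted line marks log2 7. The Stat3 WT lines climb in both numbers, by 1.40 to 5.59, while the Stat3 KO lines lie between -0.50 and 0.76.

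Only Ccn2 was reversed. It encodes connective tissue growth factor, a matrix-associated protein driven by serum and TGF-beta. It read 11.33 and 6.27 untreated and 10.04 and 4.33 with OSM in Stat3 WT, against 3.47 and 10.38 untreated and 8.71 and 11.88 with OSM in Stat3 KO. Levels in all groups overlapped, and the untreated lines were ordered oppositely in the numbers. The response was -1.29 and -1.94 in Stat3 WT and 5.25 and 1.51 in Stat3 KO, a difference of 4.99 ± 4.37 (limma, unadjusted p = 0.296, adjusted p = 1). In limma with a block for each number in each genotype the SE was 1.22 (unadjusted p = 0.00933, adjusted p = 0.575). With values under 5 set to 5 the difference was 5.00 and 2.77 in the numbers.

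Of the 54 kept genes 47 responded upward and 7 downward. Hk2, the hexokinase that feeds glucose into glycolysis, gave nearly the same response in all 4 pairs. It read 9.25 and 9.91, then 12.71 and 13.23 in Stat3 WT, and 8.52 and 9.20, then 11.61 and 12.27 in Stat3 KO, and in both lines every treated array stood above every untreated one. The responses were 3.46, 3.32, 3.09 and 3.08, and the difference was -0.31 ± 0.62 (limma, unadjusted p = 0.64). Limma with the replicate block called the Hk2 response in Stat3 WT (adjusted p = 0.0190; 1 probe set called, 0.0148%) and in Stat3 KO (adjusted p = 0.0214; 2 called, 0.0296%). Has2, the main hyaluronan synthase, responded by 5.17 and 4.20 in Stat3 WT and by 4.11 and 5.22 in Stat3 KO. Slc2a1, the glucose transporter GLUT1, responded by 1.13 and 1.97 and by 2.29 and 1.48.

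Of the kept genes 6 were stronger in Stat3 KO by at least 1 log2 unit in both numbers. Besides Socs1 they were Ereg, Egr2, Tnfaip8, Ccl2 and Fosl1. Ereg, a ligand of the EGF receptor, read 4.09 and 5.16, then 8.89 and 8.67 in Stat3 WT, and 3.35 and 4.64, then 10.76 and 10.94 in Stat3 KO. The treated Stat3 KO arrays were above the treated Stat3 WT arrays, and the untreated arrays overlapped. Its difference was 2.70 ± 0.81 (limma, unadjusted p = 0.0148, adjusted p = 1), with 2.61 and 2.80 in the numbers. Of its arrays 3 read below log2 5, and setting those values to 5 left 1.87 and 2.44. The zinc finger factor Egr2 responded by 2.29 and 1.95 in Stat3 WT and by 4.13 and 5.20 in Stat3 KO. For the AP-1 member Fosl1 the responses were 3.44 and 2.76 against 4.48 and 3.80, for the monocyte chemokine Ccl2 3.07 and 1.11 against 4.16 and 2.20, and for Tnfaip8 1.05 and 1.37 against 2.18 and 2.47. Serpinb2, an inhibitor of urokinase, was the single kept gene weaker in Stat3 KO. It read 2.38 and 2.94, then 6.36 and 9.91 in Stat3 WT, and 2.38 and 2.73, then 4.19 and 5.30 in Stat3 KO, a difference of -3.29 ± 1.594 (limma, unadjusted p = 0.0838, adjusted p = 1). With values under 5 set to 5 its Stat3 KO response was 0 and 0.30.

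The remaining 47 kept genes had a median difference of 0.10, from -1.24 to 2.52, and passed 1 log2 unit in neither or in only 1 number, or with changing sign. Early transcription factors were Atf3 (1.30 and 1.39 against 1.25 and 2.46), Klf5 (3.14 and 3.04 against 4.38 and 2.59) and Snai1 (2.23 and 2.22 against 1.28 and 1.34). The other Atf3 probe sets were dimmer and stayed under the limit, the next brightest at 0.75 and 0.67 against 0.39 and 0.84. Cebpd, a STAT3 target, responded by 3.86 and 2.39 in Stat3 WT and by 1.69 and 2.08 in Stat3 KO. Guanylate-binding and immunity-related GTPase genes of the interferon response were kept too, among them Gbp2 (2.15 and 1.44 against 2.91 and 1.92), Gbp2b (3.07 and 1.93 against 3.81 and 2.75) and Igtp (2.32 and 2.18 against 7.62 and 1.93). Feedback regulators of the MAP kinase arm were Dusp6, an ERK phosphatase (3.53 and 1.36 against 5.31 and 1.93), and Errfi1, an inhibitor of the EGF receptor (4.27 and 1.49 against 5.01 and 3.74). Downward kept genes were Bmp4, Fzd2, Apcdd1, Hoxa2, Snx21, Mapre2 and Pde6d. For Bmp4 the 2 probe sets disagreed. The brighter one gave -1.75 and -2.17 in Stat3 WT against -1.34 and -1.54 in Stat3 KO. The other gave -1.43 and -1.92 in Stat3 WT against -0.02 and -0.47 in Stat3 KO. Its differences of 1.41 and 1.46 were within the limits of a lost response.

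**Figure D4:**
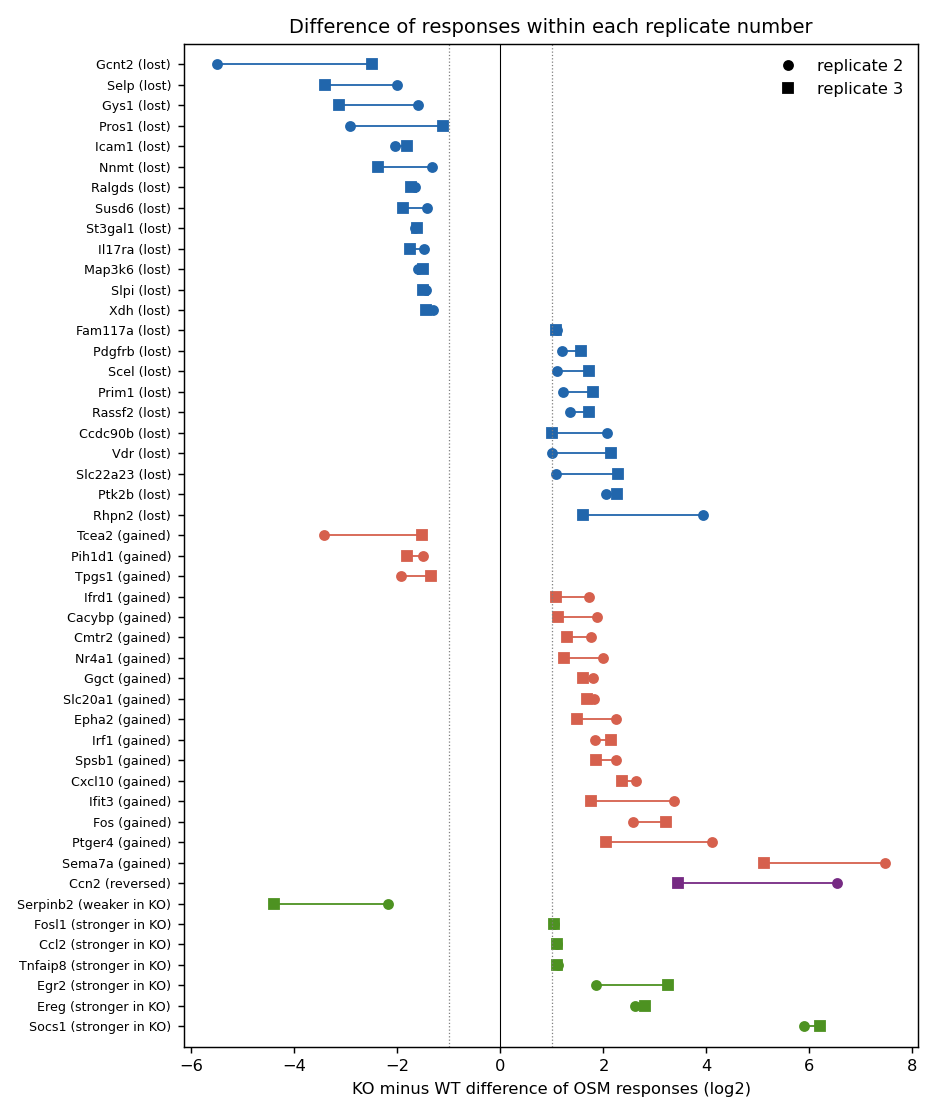
Stat3 KO minus Stat3 WT difference of OSM responses (x axis, log2) within replicate 2 (circles) and replicate 3 (squares) for the lost, gained, reversed and stronger or weaker kept genes, 1 gained gene left out. Dotted lines mark 1 log2 unit either way. By the rule of the classes both points of a gene lie on 1 side of 0, and the distance between them is largest for Ccn2, from 3.44 to 6.53.

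The receptor chains Osmr, Il6st and Lifr did not share a pattern. Osmr, the OSM-specific chain, read 9.91 and 12.98, then 12.81 and 14.22 in Stat3 WT, and 6.84 and 9.87, then 10.54 and 12.95 in Stat3 KO, and it was kept. Within each number its untreated level was lower in Stat3 KO. Il6st, the gp130 chain, read 11.30 to 12.76 on all arrays, with responses of 0.77 and 1.11 in Stat3 WT and 0.12 and 0.08 in Stat3 KO, and its difference was -0.84 ± 0.62 (limma, unadjusted p = 0.221, adjusted p = 1). Il6st's other probe set gave 0.61 and 1.76 against 0.00 and 0.21. Lifr, the LIF receptor chain, gave 0.81 and -0.40 against 2.28 and 0.69, and its next brightest probe set 0.26 and 0.03 against 0.36 and -0.29. Neither Il6st nor Lifr met the limit of a response in both numbers.

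Several known STAT3 targets were undecided, with Stat3 KO responses on different sides of the limit in the 2 numbers. Socs3 read 9.10 and 8.72 untreated and 13.80 and 13.80 with OSM in Stat3 WT, against 8.31 and 5.38 untreated and 9.12 and 11.98 with OSM in Stat3 KO. The response was 4.70 and 5.08 in Stat3 WT, and 0.81 and 6.61 in Stat3 KO, so the difference was -3.89 within replicate 2 and 1.52 within replicate 3. The other Socs3 probe set gave 4.77 and 4.63 against 1.10 and 4.25. Bcl3, an IkB family cofactor, responded by 4.66 and 2.42 in Stat3 WT, and by -0.67 and 2.95 in Stat3 KO. Stat3's own transcript responded by 1.71 and 1.44, and by 0.62 and 1.36, and its other probe set by 2.19 and 1.62, and by 0.18 and 4.44. With the brighter probe sets each of these 3 genes passed the Stat3 KO limit in replicate 3 only, whereas the other Socs3 probe set passed it in both numbers. Stat3 KO OSM replicate 3 is the array on which the second Stat3 probe set read 7.30, and its part in these values was not tested. The promoter of Socs3 is shown because the gene carries the classical STAT3 response: the 250 bases before the start, chr11:117969367-117969616 of GRCm38.p6, minus strand, with the match, 154 bases before the start, in capitals.
Socs3: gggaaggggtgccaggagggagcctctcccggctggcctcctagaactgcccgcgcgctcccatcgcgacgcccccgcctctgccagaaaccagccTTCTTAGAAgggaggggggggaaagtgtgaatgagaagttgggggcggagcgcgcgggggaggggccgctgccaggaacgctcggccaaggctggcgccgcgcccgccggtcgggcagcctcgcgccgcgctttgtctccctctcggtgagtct

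Among the 66 undecided genes that responded in Stat3 WT, the Stat3 KO response passed the limit in the same direction in replicate 3 only for 19 genes and in replicate 2 only for 20. It was under the limit in both numbers for 21. Those past it in replicate 3 only included Il4ra (4.30 and 1.79 in Stat3 WT against -0.45 and 1.28), Casp4 (4.11 and 5.48 against 0.73 and 3.73), Junb (1.98 and 1.99 against 0.42 and 1.75), Timp1 (1.43 and 1.99 against -0.31 and 1.13) and Nfil3 (1.79 and 2.35 against -0.08 and 1.10). Other probe sets placed some of these genes elsewhere. That of Junb gave 4.31 and 2.19 against 1.22 and 2.03, past the limit in both numbers. That of Nfil3 gave 1.37 and 1.32 against -0.62 and 0.59, under it in both in Stat3 KO. Those of Il4ra and Timp1 were dim, with highest group means of 1.61 and 2.14, and stayed under the limit in both lines. Those past it in replicate 2 only included Socs2 (4.24 and 1.22 against 2.52 and 0.65), Jak2 (1.40 and 1.69 against 1.61 and 0.83) and Psmb8 (3.32 and 2.71 against 1.97 and 0.58). These examples were chosen after their values were seen. In the other direction 58 undecided genes responded in Stat3 KO only.

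**Figure D5:**
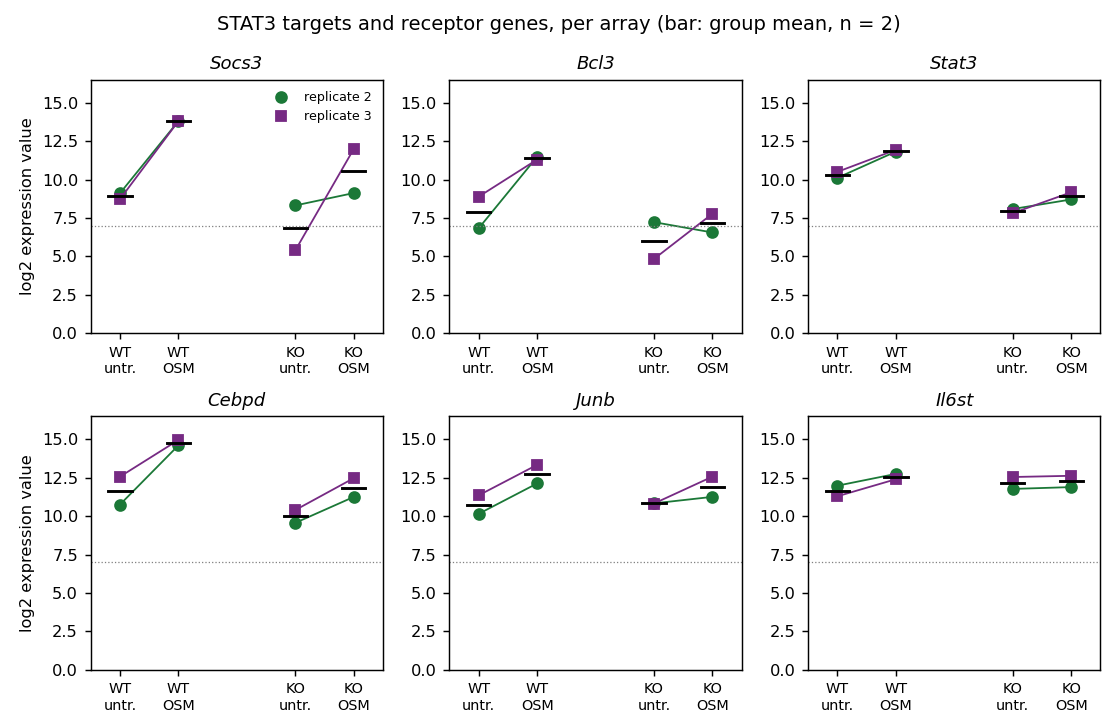
Log2 expression value on each array for 5 STAT3 targets and the receptor gene Il6st, by group on the x axis (untr., untreated), with lines joining arrays of 1 replicate number and black bars at the group mean (n = 2). The dotted line marks log2 7. The Stat3 KO lines of the numbers cross for Socs3, from 8.31 and 5.38 to 9.12 and 11.98, and for Bcl3, from 7.22 and 4.83 to 6.55 and 7.77, while the treated Stat3 WT arrays of both genes lie close together.

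Gene lists were read by counts against all 4569 genes, of which 2.21% responded upward in Stat3 WT and 2.3% in Stat3 KO, and whose median difference was 0.05. Of 32 STAT3 targets above the minimum, 13 responded upward in Stat3 WT and 8 in Stat3 KO. Their responses were lost for 1, gained for 2 (Fos and Irf1), kept for 4 (Ccl2, Cebpd, Osmr and Zfp36) and undecided for 11. Their median difference of the means was -0.15, but the medians within the numbers were -0.04 and 0.42. The difference was above 0 in both numbers for 13 (40.6%, against 33.3% of all genes) and below for 12 (37.5%, against 28.6%). Both shares were above those of all genes, and the list as a whole lay on neither side. Of 37 interferon-stimulated genes 7 responded upward in Stat3 WT and 16 in Stat3 KO, with a median difference of 0.61 (0.49 in replicate 2 and 0.08 in replicate 3). Gained were Cxcl10, Ifit3 and Irf1, kept were Gbp2, Ifi204, Ifi47, Igtp and Tap1, and 10 were undecided. For 14 of the 37 the difference was above 0 in both numbers (37.8%, against 33.3% of all genes) and for 7 below (18.9%, against 28.6%). Over the means of both numbers, the list medians under quantile normalization and median centring were -0.21 and -0.27 for the STAT3 targets and 0.47 and 0.49 for the interferon-stimulated genes.

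Genes of the MAP kinase feedback list lay mostly on the side of a larger Stat3 KO response. Besides feedback regulators such as Dusp6 and Errfi1, the list holds the ligand Ereg, the receptor Epha2 and the AP-1 member Fosl1. Of its 13 genes 6 responded upward in Stat3 WT and 9 in Stat3 KO, and with median centring 6 and 7. The difference was above 0 in both numbers for 8 (61.5%, against 33.3% of all genes) and below for 1 (7.69%, against 28.6%). Their median difference was 1.04 (1.03 in replicate 2 and 0.46 in replicate 3), and 0.96 and 0.93 after quantile normalization and median centring. Kept were Dusp6, Ereg, Errfi1, Fosl1, Ier3 and Phlda1, and Epha2 was gained. Of 36 immediate early genes 11 responded upward in Stat3 WT and 15 in Stat3 KO, and with median centring 12 in each. The difference was above 0 in both numbers for 20 (55.6%, against 33.3% of all genes) and below for 7 (19.4%, against 28.6%). Egr1 responded by 4.77 and 0.72 in Stat3 WT and by 2.62 and 1.79 in Stat3 KO, and Myc by 1.68 and 0.61 and by 1.49 and 1.08. Some genes belong to both lists.

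Of 22 genes of hypoxia and glycolysis 0 differed by 1 log2 unit in both numbers. The difference was below 0 in both for 10 (45.5%, against 28.6% of all genes), above for 0 and of mixed sign for the rest, with a median of -0.28 (-0.31 after quantile normalization and -0.39 after median centring). In Stat3 WT 4 responded upward, and 2 in Stat3 KO, Hk2 and Slc2a1, which were kept. Of 21 NF-kB and chemokine genes 5 responded upward in Stat3 WT and 4 in Stat3 KO. Their difference was above 0 in both numbers for 8 and below for 8 (38.1% each, against 33.3% and 28.6% of all genes). Among 19 gp130 and JAK-STAT components 6 and 3 responded upward, and of 4 EGF receptor family genes 2 and 3. Il6, itself a cytokine of the family, read 3.58 and 6.53, then 3.77 and 10.24 in Stat3 WT, and 3.68 and 4.11, then 4.41 and 7.05 in Stat3 KO, so its response passed the limit in replicate 3 only, in both lines.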

How the data were processed

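Biotin-labelled total RNA was run on 8 Affymetrix arrays, per the labels. Log2 values per probe set were deposited, which the authors computed with affy and GCRMA, per the submitters' processing notes. Neither their versions nor joint normalization of the arrays is stated in the sources used. Because GCRMA shrinks dim signals to a low level, log2 differences of transcripts dim in a group can come out too large. Scanner files were not used. Of 12488 probe sets 66 were controls, 10833 had 1 symbol in the platform annotation, 396 several and 1193 none. Gene IDs of 10817 matched RefSeq GRCm38.p6, used for names and promoters. A gene was represented by its single-symbol probe set with the highest mean.

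The tests used limma 3.58.1 under R 4.3.3 (lmFit, eBayes with an intensity trend, two-sided) on 4 group means with 4 residual degrees of freedom. Probe sets with log2 at least 5 on at least 2 arrays were kept (6756), with Benjamini-Hochberg adjustment over them. Array medians were 5.27 to 5.66, and 51.1% to 52.9% of values reached log2 5. The number of arrays limits the precision. The fit was checked on simulated data for mean error and sign of the estimates. That simulation gave all groups the same shift between numbers, which the deposited values did not fully share. It therefore does not show how often true differences would be called here.

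The differences between replicates 3 and 2 correlated at 0.589 to 0.911 between groups, so the number was treated as pairing the arrays on the evidence of the data. The labels do not say what it marks. Residual degrees of freedom were 3 with a replicate block and 2 with a block within each genotype.

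Named were Stat3, up to 15 genes of each class by size, up to 10 kept genes that differed, the 10 smallest p-values, called genes, classed list members and a fixed set of pathway genes. The members, lists and rules were chosen with earlier results of these data known. An item of the rule is left out of the text.

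Other settings were filters, eBayes options, quantile normalization, median centring, values under 5 set to 5, blocks, other class limits, the most variable probe set, and leaving out each array.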

Additional observations from a re-analysis of the deposited data

Results flagged for a closer look

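The 10 genes below are given here because, in both replicate numbers, their OSM response was on one side of 0 in Stat3 WT and on the other in Stat3 KO. For none did limma's test of the difference pass (adjusted p = 1 each), so the direction rests on 2 pairs per line. Stat3 KO minus Stat3 WT, the mean difference was 4.99 for Ccn2, 6.29 for Sema7a, 2.56 for Ifit3, 2.16 for Ptk2b, 1.61 for Nr4a1, 1.53 for Cmtr2 and 1.26 for Hmgcs1. It was -2.71 for Selp, -2.37 for Gys1 and -1.66 for Pih1d1. For Sema7a the Stat3 WT responses were -0.12 and -0.07, so the opposite sign there is a response near 0. In 1 number a response was similarly small for Cmtr2 (-0.04 in Stat3 WT, replicate 3), Nr4a1 (-0.11 in Stat3 WT, replicate 3, and 0 with values under 5 set to 5), Pih1d1 (0.12 in Stat3 WT, replicate 2) and Selp (-0.11 in Stat3 KO, replicate 2). The Stat3 WT response of Ifit3 in replicate 2 lay wholly below log2 5 and was 0 with values under 5 set to 5.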

How the results depend on the processing

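The number of probe sets called for the difference was 0 under every setting but the block within genotype, where it was 1; that block with values under 5 set to 5, a setting added after the data were seen, gave 0. The OSM effect in Stat3 WT, 0 called at first, gave 1 with the replicate block, 1 with the block within genotype, and 2 with that block and values under 5 set to 5. The effect in Stat3 KO gave 1 with values under 5 set to 5, 2 with the replicate block, 20 (0.296%) with the block within genotype, and 13 with both. Without single arrays all 3 counts were 0.

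Class sizes followed the limits. With a 1.5-fold limit 54 responses were lost, 66 gained, 134 kept and 356 undecided. With 3-fold the counts were 7, 8, 19 and 48, and 0 reversed. Membership changed too: of the 23 lost genes 17 stayed lost with 1.5-fold and 5 with 3-fold. Of the 18 gained genes 11 and 6 stayed gained. Lost genes that left with 1.5-fold were Ccdc90b, Gys1, Il17ra, Ptk2b, Rassf2 and St3gal1. With means over both numbers the counts were 78 lost, 111 gained, 107 kept and 3 reversed. Of the 23 lost genes 19 stayed lost after quantile normalization, 20 after median centring and 23 with values under 5 set to 5, and of the 18 gained genes 18, 14 and 16. Leaving out an array was not possible for the classes, which need both numbers.

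For 52 genes the difference kept its direction in all 515 values under the settings that left out no array. Most of these values could not turn, since filters, eBayes options and blocks leave the estimate itself unchanged. Only quantile normalization, median centring and setting values under 5 to 5 could move it. Without single arrays 34 of 416 values turned, in 14 genes. Their ranges were -0.71 to 2.90 for Ccl2, -0.25 to 3.30 for Cmtr2, -0.31 to 5.32 for Cxcl10, -2.76 to 1.68 for Egr1, -0.80 to 6.58 for Fos, -0.64 to 0.0324 for Hk2, -2.14 to 7.26 for Ifit3. For the others they were -3.35 to 3.12 for Il6, -0.12 to 2.69 for Lifr, -0.84 to 1.12 for Myc, -0.62 to 3.84 for Nr4a1, -0.21 to 2.86 for Osmr, -3.77 to 0.46 for Pih1d1 and -2.65 to 0.28 for Socs3. Among the 38 genes that kept their direction, the value moved by over 1.5 times for 25, for example -3.61 to -0.0974 for Nnmt, 0.18 to 3.93 for Spsb1, 0.54 to 4.99 for Rhpn2 and 1.53 to 8.44 for Ccn2. Such a fit sets arrays of different numbers against each other. The limits of these data are the 2 arrays a group, 1 line per genotype, the difference between the numbers and dim values below log2 5.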

Other observations

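A few further genes, chosen after their values were seen, had a difference of at least 1 log2 unit in both numbers without meeting the class limits. Mmp13, a collagenase, responded by 1.67 and 3.30 in Stat3 WT and by -1.84 and 0.58 in Stat3 KO. Cited2, a CBP-binding cofactor, responded by -2.44 and -1.90 in Stat3 WT against 1.03 and -0.22 in Stat3 KO. Ccnd1, the G1 cyclin D1, responded by -1.28 and -1.26 against 1.61 and -0.01. Ptgs2, the inducible cyclooxygenase, responded by 2.30 and -0.32 in Stat3 WT and by 5.14 and 1.85 in Stat3 KO.

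Tnfsf9, the ligand of 4-1BB, was below the minimum mean but had one of the smallest p-values: 3.16 and 3.64, then 5.94 and 6.50 in Stat3 WT, and 2.93 and 3.20, then 3.70 and 2.76 in Stat3 KO. Its difference was -2.66 ± 0.69 (limma, unadjusted p = 0.00796, adjusted p = 1). Of its 8 arrays 6 read below log2 5, and setting those values to 5 left -0.94 and -1.50. Hmgcs1, of cholesterol synthesis, had a difference of 1.26 ± 0.38 (limma, unadjusted p = 0.0148, adjusted p = 1) with responses of -0.46 and -0.69 against 1.10 and 0.28. A dim Notch1 probe set read 2.63 and 2.99, then 2.73 and 2.90 in Stat3 WT, and 3.34 and 2.96, then 6.90 and 8.23 in Stat3 KO, a difference of 4.41 ± 0.75 (limma, unadjusted p = 0.00101, adjusted p = 1). The brighter Notch1 probe set, which stood for the gene, had a difference of 0.80 ± 0.45.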
